A study of Mus musculus with 7 samples.

Results

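The gamma-delta T cell genes Trdc, Tcrg-C1, Cd163l1, Icos, Rora and Ramp1 were followed cell by cell in the mouse pancreas. They are 6 of the 33864 genes listed in the 3 deposited count tables, and each was read per mouse in the cells whose deposited cluster label starts with NK and over all cells. The names were picked with earlier results of these data in view, so that their own levels and differences are given as a description without a test.

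The study asked how immune cells respond when pancreas cells are driven towards pluripotency, and the cells were profiled with the 10x Genomics 3′ assay, which counts each captured mRNA molecule by a unique molecular identifier (UMI). Each of 7 C57BL/6 mice of 2 months gave 1 library. For 7 days, doxycycline (1 mg/ml) was given in the drinking water to 2 wild-type (WT) mice and to 3 i4F mice (genotype i4F-B). By the methods, i4F-B animals are heterozygous for the 4 reprogramming factors (OSKM), inserted at Pparg and switched on by doxycycline through a transactivator expressed from Rosa26, so that no promoter of a single cell type drives them. The 2 caerulein mice are labelled wild type, and received caerulein, a cholecystokinin analogue that causes mild acute pancreatitis, at 100 µg/kg in 7 injections a day on 2 days. No doxycycline is given in their labels, so that caerulein and the absence of doxycycline cannot be told apart against WT.

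Gamma-delta T cells are lymphocytes whose antigen receptor pairs a gamma with a delta chain in place of the alpha and beta chains of most T cells. They sit in barrier and organ tissues, respond fast and without priming, and a subset made in the fetal thymus produces interleukin 17. The receptor reaches the cell surface only together with the CD3 signalling chains, which alpha-beta T cells use as well. Among the 6 genes, Trdc encodes the constant part of the delta chain and Tcrg-C1 a constant part of the gamma chain. Cd163l1 encodes SCART1, a scavenger receptor cysteine-rich protein of gamma-delta T cells, Icos an inducible costimulator of the CD28 family, Rora the nuclear receptor ROR-alpha, and Ramp1 the co-receptor that makes the calcitonin receptor-like receptor (Calcrl) respond to the neuropeptide CGRP. The last 3 are also used by other cells, among them type 2 innate lymphoid cells (ILC2) for Icos and Rora.

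In the GENCODE annotation of GRCm38, all 6 genes lie on the plus strand: Icos at chr1:60977927-61000320, Ramp1 at chr1:91179822-91225196, Cd163l1 at chr7:140218267-140231145, Rora at chr9:68653786-69388246, Tcrg-C1 at chr13:19214103-19217024 and Trdc at chr14:54142851-54148868. Tcrg-C1 has near copies beside it on chromosome 13. The sequences show how alike these copies are at the start of the constant exon. They are the first 120 coding bases of the constant exon, 5′ to 3′ on the strand of the gene, at chr13:19214103-19214222 (plus) for Tcrg-C1, chr13:19307432-19307551 (minus) for Tcrg-C2 and chr13:19344558-19344677 (plus) for Tcrg-C4, and capitals mark bases unlike Tcrg-C1.
Tcrg-C1: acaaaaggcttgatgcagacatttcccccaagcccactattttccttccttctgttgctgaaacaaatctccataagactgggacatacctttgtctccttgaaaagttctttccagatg
Tcrg-C2: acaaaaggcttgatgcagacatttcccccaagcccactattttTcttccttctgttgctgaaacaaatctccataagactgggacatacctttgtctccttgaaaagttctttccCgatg
Tcrg-C4: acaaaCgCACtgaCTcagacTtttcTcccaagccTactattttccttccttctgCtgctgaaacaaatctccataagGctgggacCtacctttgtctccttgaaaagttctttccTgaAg
Tcrg-C2 differed from Tcrg-C1 at 2 of these bases and Tcrg-C4 at 14. Over the coding sequence, 487 of 500 aligned bases (97.4%) were identical between Tcrg-C1 and Tcrg-C2, against 403 of 512 (78.7%) for Tcrg-C4. The longest run shared with the Tcrg-C1 transcript was 104 bases for Tcrg-C2 and 29 bases for Tcrg-C4. Counts of Tcrg-C1 and Tcrg-C2 are therefore uncertain wherever a read lay within a shared stretch. Reads of a 3′ assay lie mostly near the 3′ end of the transcript, which was compared only through the longest shared run. Cd163l1 and its neighbour 5830411N06Rik, which encodes the related SCART2, shared no run above 23 bases between their transcripts.

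The libraries held 4327 to 15138 cells (58473 in all) and 15469018 to 64784216 UMIs. NK-labelled cells numbered 72 in WT 1, 121 in WT 2, 194 in i4F 1, 342 in i4F 2 and 993 in i4F 3, and no caerulein cell carried such a label. Their share of the library was 1.66% and 1.91% for the WT mice and 1.98%, 4.16% and 13.0% for the i4F mice, and their median depth was 2247.5 and 1667 UMIs in WT against 782, 759.5 and 1186 in i4F mice. The authors clustered each condition on its own, so that the same name need not cover the same cells in WT and i4F mice. Library i4F 3 stood apart by that share. It also had the lowest median depth over all cells, 1248.5 UMIs against 1986 to 4247 in the other libraries. Of its 7614 cells, 3133 held under 500 genes. In all libraries, 366 barcodes occurred in more than 1 library (732 cells), 1 of them among NK-labelled cells. WT 1 and the i4F mice share 1 series of library names, and WT 2 and the caerulein mice the other.

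The label covers a mixture. In WT mice, it held transcripts of NK cells (9 of 9 marker genes detected in both mice, together 2298 to 4308 CPM), of ILC2 (10 to 11 of 12, 1763 to 1982) and of the CD3 chains (4 of 4, 1823 to 1990). In i4F mice, the NK cell genes together stood at 254 to 644 CPM, and alpha-beta T cell genes at 3488 to 5090 against 2718 to 2896 in WT. Levels are given as UMIs scaled to a common total of UMIs of the same cells (CPM), and in such sums fewer cells of a type and less RNA per cell cannot be told apart.

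In NK-labelled cells, Trdc and Tcrg-C1 were lower in every i4F mouse than in either WT mouse. Trdc gave 90 UMIs in WT 1, 167 in WT 2, 35 in i4F 1, 12 in i4F 2 and 211 in i4F 3. In CPM, that was 493 and 715 in WT against 180, 39.7 and 155 in i4F mice, or 604 ± 157 (SD, n = 2) against 125 ± 75.0 (SD, n = 3). The groups did not overlap, with i4F 2 lowest, and the fitted log2 difference of i4F from WT was -2.15 ± 0.48 (SE).

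Tcrg-C1 followed the same order of groups. It gave 31 and 25 UMIs in WT and 8, 4 and 57 in i4F mice, which was 170 and 107 CPM against 41.2, 13.2 and 42.0. The log2 difference was -1.85 ± 0.44 (SE), with group means of 138 ± 44.3 (SD, n = 2) and 32.1 ± 16.4 (SD, n = 3). The near copies were sparser, with 2 and 12 UMIs of Tcrg-C2 for WT against 8, 3 and 13 for the i4F mice, and 15 and 10 against 8, 2 and 21 UMIs of Tcrg-C4. In CPM, Tcrg-C4 did not overlap between the groups (82.1 and 42.8 against 41.2, 6.61 and 15.5), whereas Tcrg-C2 did, with 10.9 and 51.4 against 41.2, 9.91 and 9.57. Tcrg-C3 and several variable genes were not analysed here.

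Cd163l1 gave 22 and 20 UMIs in WT and 12, 2 and 61 in i4F mice. This was 120 and 85.6 CPM against 61.8, 6.61 and 44.9, and again no i4F mouse reached a WT mouse (103 ± 24.6 SD, n = 2, against 37.8 ± 28.3 SD, n = 3, log2 difference -1.28 ± 0.55 SE). In i4F 2, the count of 2 UMIs leaves the level poorly determined.

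Ramp1 was also lower in all 3 i4F mice. Its UMIs numbered 67 and 93 for WT against 44, 32 and 278 for the i4F mice, or 367 and 398 CPM against 227, 106 and 205. The log2 difference was -0.98 ± 0.33 (SE).

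Rora and Icos were less clear. Rora stood at 712 and 659 CPM in WT (130 and 154 UMIs) and at 644, 248 and 189 in i4F mice (125, 75 and 257 UMIs), so that i4F 1 lay just below WT 2 while the other i4F mice were far lower. Its log2 difference was -0.90 ± 0.43 (SE). Icos stood at 394 and 385 CPM in WT (72 and 90 UMIs), inside the i4F range of 572, 294 and 239 (111, 89 and 324 UMIs), with a log2 difference of -0.03 ± 0.35 (SE). Of the 6 genes, all except Icos had i4F and WT mice that did not overlap. The same was true of 34.1% of the 3574 genes tested. Overlap is counted here and in the comparisons over all cells on CPM after TMM scaling, edgeR's correction for library composition, which can differ from the plain CPM printed.

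**Figure D1:**
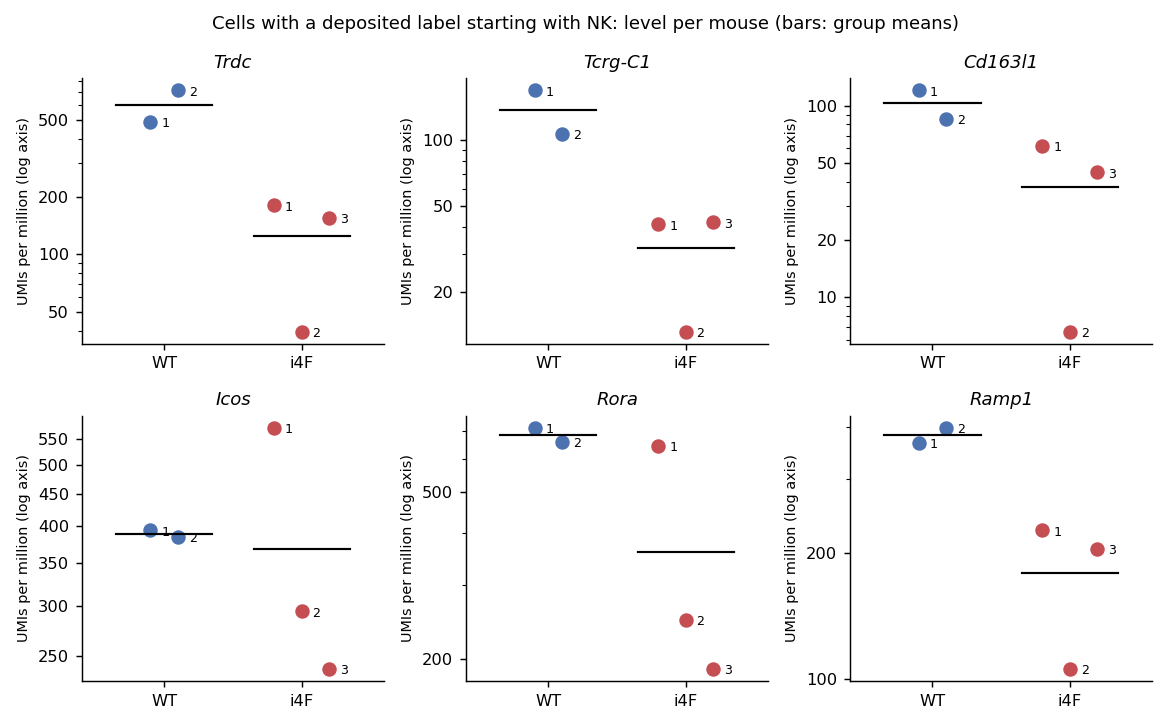
Level of each gene in NK-labelled cells, in CPM on a log axis, for each WT and i4F mouse (points, with the mouse number) and the group mean (bar). Trdc, Tcrg-C1, Cd163l1 and Ramp1 lie below both WT mice in all 3 i4F mice, while Icos spans the WT values.

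The share of NK-labelled cells with at least 1 UMI gave a similar picture for the receptor genes. Trdc was found in 16.7% and 15.7% of the WT cells and in 9.79%, 2.63% and 5.94% of the i4F cells, and Tcrg-C1 in 20.8% and 15.7% against 4.12%, 1.17% and 3.63%. Since i4F cells were shallower, every cell with at least 1000 UMIs was also thinned to that number, which kept 65 and 110 WT cells and 54, 79 and 698 i4F cells. Trdc then stood at 16.2% and 13.8% in WT against 3.54%, 0% and 5.76%, and Tcrg-C1 at 13.9% and 10.9% against 3.06%, 0.860% and 3.02%. Outside the NK label, Trdc was found in 100 i4F cells and 3 WT cells.

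Thinning changed the other genes unequally. Cd163l1 went from 8.33% and 9.92% in WT against 3.61%, 0.292% and 2.92% to 7.65% and 8.23% against 0%, 0% and 2.78%. Ramp1 went from 34.7% and 42.1% against 12.9%, 8.19% and 20.7% to 25.1% and 30.2% against 19.6%, 5.40% and 17.1%. Rora in i4F 1 reached 37.4% after thinning and thus passed both WT mice (32.7% and 35.7%), while Icos in i4F 1 stood at 29.4% against 28.0% and 24.3%.

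Trdc-positive cells also held fewer Trdc molecules each in i4F mice. The median was 7 UMIs in the 12 Trdc-positive cells of WT 1 and 8 in the 19 of WT 2, against 2 in 19 cells of i4F 1, 1 in 9 cells of i4F 2 and 3 in 59 cells of i4F 3. Their median depth was 2104.5 and 1578 UMIs for WT against 745, 640 and 1246 for the i4F mice, and the part of depth in these values was not tested.

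Across all genes of NK-labelled cells, edgeR's quasi-likelihood test with Benjamini-Hochberg adjustment called 54 of 3574 genes between i4F and WT mice (1.51%), 10 higher (0.28%) and 44 lower (1.23%). DESeq2 called 31 higher and 69 lower. On simulated data made from these sums, edgeR recovered 7.77% of genes changed 2-fold and 69.1% of those changed 4-fold. The median log2 difference over all tested genes was 0.01.

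The CD3 chains, which gamma-delta and alpha-beta T cells share, had 0 of 4 genes past the test, and their median log2 difference was 0.22. The alpha-beta T cell genes (receptor constant chains, coreceptors and naive-cell genes) had a median of 1.11 with 0 of 9 past the test. Of 23 genes of interleukin-17-type gamma-delta T cells, 11 were tested and 1 passed, Ccr2, a chemokine receptor, which fell (log2 difference -2.73 ± 0.47 SE, adjusted p = 0.0273). The list's median was -1.11. Without WT 1 or without i4F 2 the Ccr2 call was lost.

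Other lymphocyte genes of the label fell at the same time. Of 9 NK cell genes, 8 fell, with a median of -3.24 over the list, among them Ncr1, the NK receptor NKp46 (log2 difference -3.46, adjusted p = 0.0101), and Gzma, a cytotoxic granule protease (-3.37, adjusted p = 0.0274). Of 9 tested ILC2 genes, 2 fell, Hs3st1 (-4.39, adjusted p = 0.00515) and Klrg1 (-3.85, adjusted p = 0.00749), with a list median of -2.28. Ifng, the cytokine of NK cells and of the other major gamma-delta subset, fell as 1 of 11 genes of its list (-2.52, adjusted p = 0.00416). These adjusted p-values are from edgeR's quasi-likelihood test over all genes. A gene sparse in i4F mice could pass the filter on low counts through the WT mice alone, which sets its direction in advance. Among the 6 genes, this held for Tcrg-C1 (13.2 to 42.0 CPM in i4F, 107 to 170 in WT mice). It was not examined for each listed gene, so that the counts and medians describe these cells and are no test of the lists. The count of 8 NK cell genes was 1 without WT 1, 1 without i4F 2 and 6 to 8 without any of the other mice. Leaving out 1 mouse ended the calls of Ncr1 (WT 1), Gzma and Klrg1 (WT 1 or i4F 2), and those of Hs3st1 and Ifng held whichever mouse was left out.

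Markers of cells outside the lymphocytes were read as well. Stellate cell genes summed to 1040 to 2649 CPM in WT and 66.1 to 191 in i4F mice, and 1 of 3 tested, Dcn, the matrix protein decorin, fell (-4.68, adjusted p = 0.00416 by edgeR's quasi-likelihood test). Macrophage genes summed to 0 to 47.1 in WT and 157 to 577 in i4F mice, and 0 of 3 tested were called. Heat-shock genes, which rise with tissue dissociation, ran from 2080 to 2735 in WT and from 1092 to 5315 in i4F mice, where Hspa1a alone gave 27 UMIs in i4F 1 and 4627 in i4F 3, and 0 of 5 were called. The part of these cells and of RNA quality in the values of the 6 genes was not tested.

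NK-labelled cells were divided by whether they held a Trdc UMI, which gave 118 Trdc-positive cells (median depth 1199 UMIs) and 1604 without (1082 UMIs). Cd163l1 was found in 43.2% of the Trdc-positive cells (exact 95% interval 34.1 to 52.7%) and in 0.249% of the others (0.0680 to 0.637%). Tcrg-C1 was found in 42.4% (33.3 to 51.8%) against 2.00% (1.37 to 2.80%). Conversely, 51 of the 55 NK-labelled cells with Cd163l1 held Trdc.

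The wider genes were shared. Icos was found in 48.3% of Trdc-positive and 22.1% of other cells, Rora in 50% and 18.5%, and Ramp1 in 50% and 17.2%. Cd3d, a CD3 chain, was in 61.0% and 53.4%, and Trac, the constant alpha chain, in 8.47% and 43.5%. These shares pool 5 mice and their intervals cover the counting of cells, not the spread between mice. The deeper WT cells made up 31 of the 118 Trdc-positive cells but 193 of all 1722 NK-labelled cells, and their part in the pooled shares was not tested. Among Trdc-positive cells of single mice, Icos was found in 22.2% to 75%, Rora in 33.3% to 75% and Ramp1 in 11.1% to 94.7%. By mouse, Cd163l1 was found in 11.1% to 63.2% of Trdc-positive and 0% to 1.14% of other cells, and Tcrg-C1 in 11.1% to 66.7% and 0.857% to 11.7%.

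**Figure D2:**
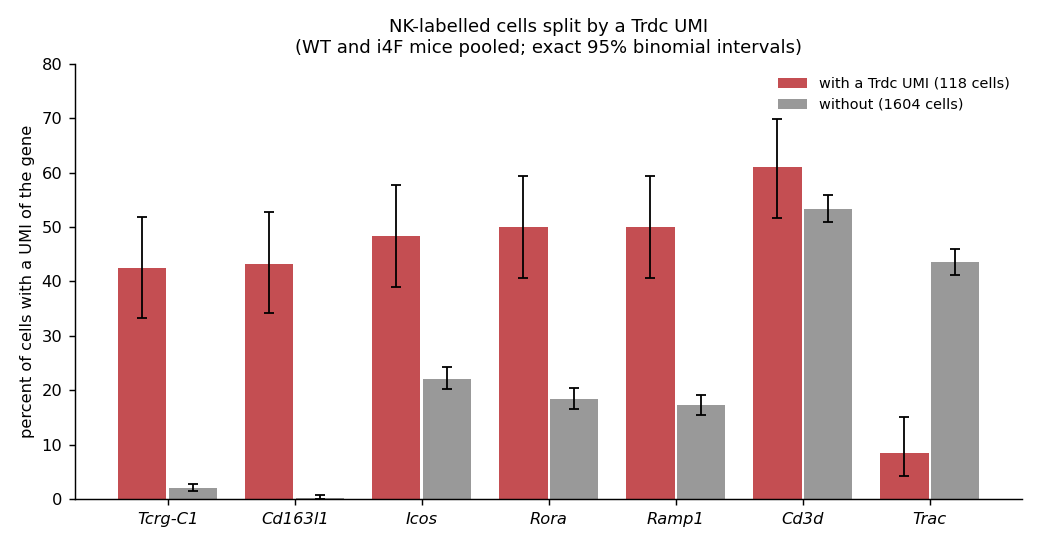
Percent of NK-labelled cells with a UMI of each gene, for the 118 cells with a Trdc UMI (red) and the 1604 without (grey), WT and i4F mice pooled, with exact 95% binomial intervals. Tcrg-C1 and Cd163l1 are found in 2.00% and 0.249% of the cells without Trdc, Icos, Rora and Ramp1 in 17.2% to 22.1% of them, and Trac in 43.5%.

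The same split was tested over mice in all genes, with both sums of a mouse in 1 block, in the 4 mice with at least 10 Trdc-positive cells (i4F 2, with 9, was left out). Trdc defines the sums and is no result. Cd163l1 gave 22, 20, 8 and 59 UMIs in the Trdc-positive cells of WT 1, WT 2, i4F 1 and i4F 3 and 0, 0, 4 and 2 in the others, a log2 difference of 7.38 ± 0.52 (SE). With so few UMIs in the others its size is poorly determined, and it ran from 6.22 to 8.78 with 1 mouse left out. Tcrg-C1 gave 24, 15, 3 and 47 UMIs against 7, 10, 5 and 10 (4.55 ± 0.43 SE).

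Ramp1 stood at 979, 1177, 593 and 621 CPM in Trdc-positive cells of these mice and at 272, 273, 196 and 180 in the others (log2 difference 1.76 ± 0.23 SE). Icos stood at 1020, 589, 922 and 698 against 297, 353, 542 and 211 (1.21 ± 0.25 SE). Rora stood at 1509, 681, 988 and 660 against 588, 656, 615 and 161 (1.00 ± 0.27 SE), and in WT 2 both sums were nearly alike. After TMM scaling, Cd163l1, Tcrg-C1, Ramp1 and Icos were higher in the Trdc-positive cells of each of the 4 mice and Rora in those of 3, the exception being WT 2. Over all genes, 24.4% of 1660 differed in the same direction in every mouse.

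Outside the 6 genes, Trdc-positive cells were read against the interleukin-17-type list, which was chosen with earlier results of these data known. edgeR's quasi-likelihood test with Benjamini-Hochberg adjustment called 95 of 1660 genes (5.72%), 56 higher (3.37%) and 39 lower (2.35%). The split was 67 higher and 26 lower with library totals, 50 and 18 with DESeq2, 44 and 206 without a filter, and 19 and 2 with no replicate block. In the fit as described, 7 of the 11 tested genes of this list were higher. They were Actn2 (log2 difference 3.64 ± 0.44 SE, adjusted p = 3.41e-06), Serpinb1a (2.56), Tmem176b (2.44), Ltb4r1 (2.40), Tmem176a (2.40), Cxcr6, a chemokine receptor of tissue lymphocytes (2.17), and Il7r, the interleukin 7 receptor (1.44). The list's median was 2.17 against -0.07 over all tested genes. Of its 23 genes, 11 passed the filter on low counts. A gene sparse in cells without Trdc could pass it through the Trdc-positive sums alone, which sets its direction in advance. This held for Actn2 (mean 319 against 29.0 CPM) and, among the 6 genes, for Cd163l1 and Tcrg-C1. The count of 7 and the median thus describe these cells and are no test of the list. The calls of Actn2, Serpinb1a, Tmem176a and Tmem176b held under all 10 alternatives. That of Ltb4r1 was lost under 4 of 9, among them without i4F 1 and without i4F 3. With any 1 mouse left out, 6 or 7 genes of the list were called.

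The transcription factor Sox13 and the kinase Blk, which mark this subset, were too sparse for that fit and are given as cells. Blk was found in 17.8% of Trdc-positive and 0.187% of other NK-labelled cells, and Sox13 in 8.47% and 0.0623%. The delta variable gene Trdv4 was found in 14.4% and 0.561%. The cytokine gene Il17a itself was found in 11.0% (6.00 to 18.1%) and 0.998% (0.571 to 1.61%), but in i4F 1 the shares were alike (5.26% and 5.14%). Blk ranged from 6.78% of Trdc-positive cells in i4F 3 to 58.3% in WT 1.

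Some genes of other lymphocytes were lower beside Trdc. Of 7 tested alpha-beta T cell genes, 4 were lower, namely Cd8b1, a CD8 coreceptor chain (log2 difference -5.14, adjusted p = 2.90e-05), Trac (-2.97, adjusted p = 3.23e-05), Ccr7, a homing receptor of naive T cells (-2.01), and Trbc2 (-0.99). Of 5 regulatory T cell genes, 2 were lower, Tnfrsf4 (-2.91) and Tnfrsf18 (-1.04). Of the cytotoxic genes, Gzmb (-2.19) was lower as 1 of 2 NK cell genes and Nkg7 (-1.29) as 1 of 8 interferon-gamma-type genes. All are calls of edgeR's quasi-likelihood test, and only that of Trac held under all alternatives. A gene sparse in Trdc-positive cells could pass the filter on low counts through the Trdc-negative sums alone, which sets its direction in advance. This held for Cd8b1 (mean 4.39 against 234 CPM) and Trac (93.2 against 682). The counts thus describe these cells and are no test of the lists. With 1 mouse left out, the calls of Gzmb and Nkg7 (WT 1 or WT 2), Trbc2 (i4F 1) and Tnfrsf18 were lost, that of Tnfrsf18 under 8 of 10 alternatives in all.

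Of the 4 CD3 chains, 2 were higher in Trdc-positive cells, Cd247 (1.26, lost without i4F 3) and Cd3g (1.06), and 2 were not called, Cd3d (0.45 ± 0.26 SE) and Cd3e (0.54 ± 0.33 SE). In the families of Icos and Ramp1, the inhibitory receptor gene Pdcd1 was higher (1.94), Cd28 lower (-1.68), Ramp3 higher (1.00) and Calca, which encodes CGRP, lower (-2.08). The calls of Cd28, Ramp3 and Calca were lost under 6 or more of the alternatives. Large changes outside these lists were those of Ckb, a creatine kinase (3.38), the keratin gene Krt83 (3.19), the adaptor gene Fyb (-2.35) and the phosphatase gene Inpp4b (-2.26). Ckb and Krt83 were sparse in cells without Trdc (mean 1025 against 102 and 514 against 60.1 CPM), and Inpp4b in those with it (42.1 against 161). These genes could pass the filter on low counts through either side alone, which sets their direction in advance. The call of Inpp4b was lost under 5 of 8 alternatives. Dcn, a stellate cell gene, was lower too (-1.95, lost under 8 of 10 alternatives), and the part of stellate cell RNA was not tested.

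The cells that carried each gene were then tallied in each WT and i4F mouse, with no test. Each NK-labelled cell was put in the first set whose rule it met: with Trdc, else with a UMI of Gata3, Il13, Il5 or Calca (genes of type 2 lymphocytes), else with Trac, else none. The type 2 set held the most Rora UMIs in both WT mice, 53.8% in WT 1 and 46.8% in WT 2. In i4F mice, it held 36.8%, 28.0% and 23.7%, while cells of none of the sets held the most in i4F 1 (43.2%) and i4F 2 (50.7%) and cells with Trac in i4F 3 (30.0%). The type 2 set made up 26.4% and 18.2% of the WT cells of the label and 11.9%, 4.39% and 8.26% of the i4F cells.

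For Icos, cells with Trac held the most UMIs in WT 1 (40.3%), WT 2 (54.4%) and i4F 3 (51.2%), but cells of none of the sets in i4F 1 (49.5%) and i4F 2 (57.3%). Ramp1 had a different leading set in each WT mouse, the type 2 set in WT 1 (41.8%, with 35.8% in Trdc-positive cells) and Trdc-positive cells in WT 2 (40.9%). In i4F mice, Trdc-positive cells held 20.5%, 3.12% and 17.3% of Ramp1. The mice of a group thus differed in which set held the most UMIs, but the sets also differed in size. Cells of none of the sets made up 29.2% and 32.2% of the WT cells and 56.7%, 61.7% and 41.8% of the i4F cells. By CPM, Ramp1 was highest in Trdc-positive cells of every mouse (979 and 1177 in WT, 593, 171 and 621 in i4F mice). The 171 CPM of i4F 2 rest on 1 UMI. Rora was highest in the type 2 set of WT 2, i4F 1 and i4F 2 and in Trdc-positive cells of WT 1 and i4F 3.

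Tcrg-C1 lay in Trdc-positive cells by 77.4% and 60% in the WT mice and by 37.5%, 25% and 82.5% in the i4F mice, where i4F 1 and i4F 2 rest on 8 and 4 UMIs. The type 2 set held 19.4% and 24% of it in the WT mice, in 31.6% and 22.7% of the cells of that set. In the i4F mice, that set held 12.5%, 25% and 3.51%. Cd163l1 lay in Trdc-positive cells by 100% in both WT mice and by 66.7%, 100% and 96.7% in i4F mice, with 12, 2 and 61 UMIs in all.

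Over all pancreas cells, the order of the mice changed. Trdc stood at 5.41 and 8.77 CPM in WT, at 1.85, 1.62 and 15.0 in i4F mice and at 2.73 and 0.877 in caerulein mice (91, 181, 112, 61, 232, 177 and 15 UMIs). Tcrg-C1 stood at 1.84 and 1.31, at 0.132, 0.106 and 3.88, and at 0.386 and 0.0585. In both genes, i4F 3 was the highest of all 7 mice, while i4F 1 and i4F 2 lay below WT.

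Cd163l1 and Icos had the same high mouse. Cd163l1 stood at 1.31 and 1.07 in WT, 0.231, 0.106 and 4.07 in i4F, and 0.401 and 0.175 in caerulein mice. Icos stood at 4.52 and 4.85, at 2.08, 3.10 and 23.7, and at 1.36 and 0.819. In i4F 3, NK-labelled cells were 13.0% of the library. Genes of several other lymphocytes were highest in this mouse too, as sums over all cells. B cell genes stood at 1012 CPM against 19.1 to 127 in the other mice, the CD3 chains at 216 against 2.98 to 24.9. Alpha-beta T cell genes stood at 638 against 17.1 to 63.8. NK cell genes (39.5, with 47.2 in WT 1) and ILC2 genes (115, with 175 in i4F 1) were not highest there. Most UMIs of the ILC2 list lay outside the NK label, which held 311 of 10584 in i4F 1 and 428 of 1780 in i4F 3. The sum of that list over all cells is thus no measure of ILC2.

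Rora and Ramp1 ranked the mice differently. Rora stood at 149 and 141 in WT, 61.8, 40.5 and 77.6 in i4F, and 41.6 and 52.2 in caerulein mice, so that both WT mice were above all others. Cells with a stellate label held 58.5% of the Rora UMIs in WT, 78.0% in i4F and 76.1% in caerulein mice. The 7 stellate cell genes summed over all cells to 10675 and 13651 CPM in WT, 6749, 4274 and 5466 in i4F, and 6117 and 7150 in caerulein mice, again with both WT mice highest, and their part in the Rora values was not tested. Ramp1 stood at 145 and 158, at 25.8, 20.7 and 118, and at 60.2 and 73.0, again with both WT mice highest.

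**Figure D3:**
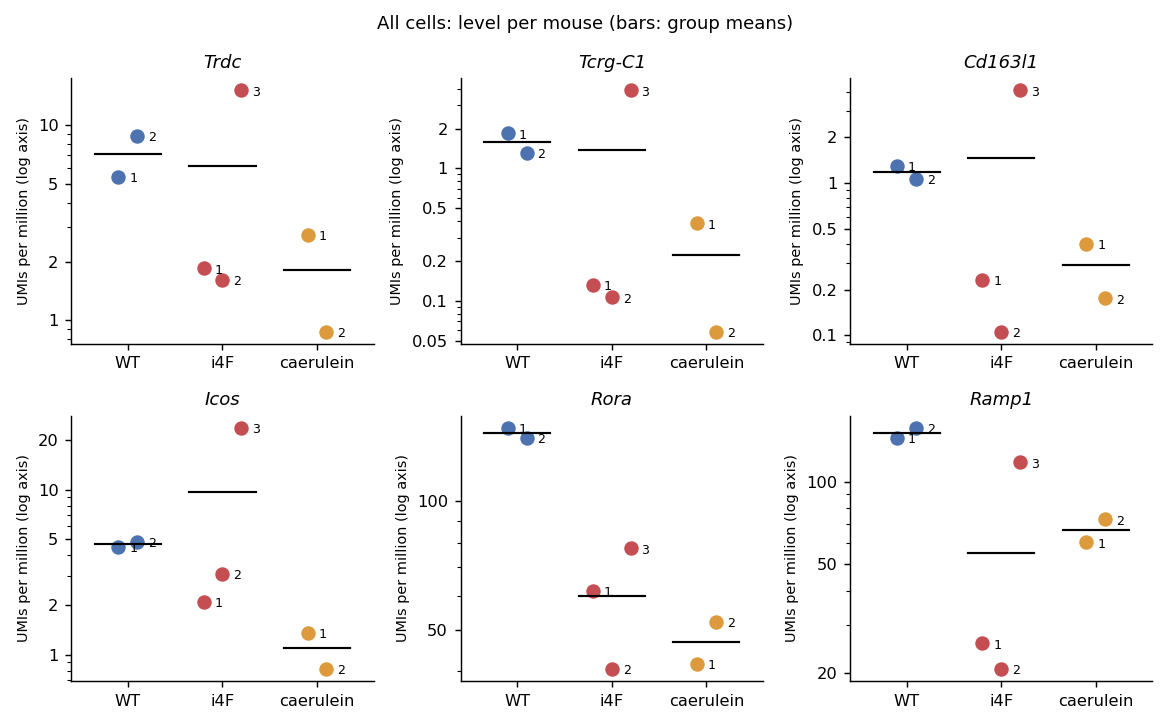
Level of each gene over all cells, in CPM on a log axis, for each WT, i4F and caerulein mouse (points, with the mouse number) and the group mean (bar). Mouse i4F 3 is the highest of all mice for Trdc, Tcrg-C1, Cd163l1 and Icos, and both WT mice are the highest for Rora and Ramp1.

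Between i4F and WT mice, the log2 differences over all cells were 0.13 ± 1.06 (SE) for Trdc, 0.08 ± 1.52 for Tcrg-C1, 0.59 ± 1.42 for Cd163l1, 1.39 ± 1.06 for Icos, -0.89 ± 0.28 for Rora and -1.09 ± 0.71 for Ramp1. Without i4F 3, the first 4 turned to -1.66 for Trdc, -3.26 for Tcrg-C1, -2.33 for Cd163l1 and -0.48 for Icos, and Ramp1 went to -2.32, while Rora and Ramp1 kept their sign under 15 of 15 alternatives. After TMM scaling, the i4F and WT mice did not overlap for 1 of the 6 genes, Rora, against 51.2% of 18340 genes. Ramp1, whose plain CPM did not overlap, did so on this scale, with 114 and 138 in WT against 28.3, 22.1 and 126 in i4F mice. edgeR's quasi-likelihood test called 0 of all 18340 genes (0%), with 6383 at an unadjusted p under 0.05, DESeq2 called 4351, and edgeR called 9543 without i4F 3. On simulated data made from these sums, edgeR recovered 0% of genes changed 4-fold.

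Between caerulein and WT mice, all 6 genes were lower, as both caerulein mice lay below both WT mice in each (76.6% of all genes did not overlap). The log2 differences were -1.52 ± 1.19 (SE) for Trdc, -2.14 ± 1.76 for Tcrg-C1, -1.49 ± 1.61 for Cd163l1, -1.66 ± 1.16 for Icos, -1.24 ± 0.32 for Rora and -0.80 ± 0.80 for Ramp1. With 1 mouse left out, Trdc ran from -2.72 to -0.90 and Tcrg-C1 from -4.33 to -1.51. Other lymphocyte lists ran lower too, with medians of -1.91 for the CD3 chains, -2.54 for NK cell genes and -3.51 for B cell genes. Over all genes, edgeR's quasi-likelihood test called 1666 of 18340 (9.08%), 944 higher (5.15%) and 722 lower (3.94%). With library totals in place of TMM, which moved the median log2 difference of all genes from -0.06 to -0.45, it called 652 higher and 2262 lower. Leaving out any of the WT and caerulein mice, or i4F 2, or adding the library series as a term, gave 0 calls. Leaving out i4F 1 gave 1006, and leaving out i4F 3 gave 8909. This comparison shares its WT mice with the previous one.

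Genes of the same pathways were read with that test, which called 9.08% of all genes. In the CGRP receptor system, Calcrl, the receptor that RAMP1 completes, fell in caerulein mice as 1 of 6 genes (23.4 and 22.1 CPM in WT against 5.62 and 5.91, log2 difference -1.59, adjusted p = 0.0477). It stood at 3.72, 4.74 and 7.69 in i4F mice, where it was not called (adjusted p = 0.0592). The median of the 6 was -1.37. The 6 endothelial cell genes ran the same way, with a median of -2.71 in caerulein mice and summed levels of 977 and 896 CPM in WT against 98.6 and 115 in caerulein and 81.5, 127 and 336 in i4F mice, and their part in the Calcrl values was not tested. Of the 20 tested genes of the interleukin-17-type list (median -0.77), Ccr2 (2.86) and Serpinb1a (1.85) were higher and Sox13 lower (-1.98, adjusted p = 0.0384) in caerulein mice, beside 6 of 6 macrophage genes that were higher, with a median of 3.62. Over all mice, 12 Sox13 UMIs lay in NK-labelled cells, which caerulein mice lack, and 889 outside them. The part of other cell types in the Sox13 values was not tested. Of 10 ROR and clock genes (median -0.68), listed because ROR-alpha drives Arntl, Arntl (-1.69) and Cry1 (-1.91) were lower. Adjusted p-values are from edgeR's quasi-likelihood test, and the calls among these genes in caerulein mice were lost when any 1 of the WT and caerulein mice, or i4F 2, was left out.

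Between i4F and caerulein mice, Icos was the 1 gene of the 6 whose groups did not overlap (log2 difference 3.05 ± 1.16 SE), which was so for 34.3% of all genes. With 1 mouse left out, that difference ran from 1.14 to 3.60. After TMM scaling, Icos stood at 25.4 CPM in i4F 3, at 2.29 in i4F 1 and at 3.30 in i4F 2. edgeR called 0 of 18340 genes, with 2637 at an unadjusted p under 0.05, and DESeq2 called 990.

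The UMIs of the 6 genes were also placed by label. In WT mice, NK-labelled cells held 94.5% of the Trdc UMIs, 96.6% of Tcrg-C1, 95.5% of Cd163l1 and 92.0% of Icos, but 5.25% of Rora and 2.81% of Ramp1. Stellate labels held 58.5% of the Rora UMIs, and acinar or ductal labels 48.5% and stellate labels 40.7% of those of Ramp1. By CPM, the WT NK label was nevertheless the highest of all labels in both genes, with 685 for Rora before 244 in the larger quiescent stellate label, and 382 for Ramp1 before 277 in acinar cells.

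In i4F mice, the NK label held 31.3% of the Trdc UMIs of i4F 1, 19.7% of those of i4F 2 and 90.9% of those of i4F 3. It held 95% to 100% of Tcrg-C1, 50% to 96.8% of Cd163l1 (i4F 2 having 4 UMIs in all) and 76.1% to 88.3% of Icos. Smooth muscle cells led for Ramp1 (217 CPM, from 138 to 336 between mice), before the NK label (179, from 106 to 227), whose range overlapped theirs. Trdc thus differed from its partner, with 147 UMIs in 100 cells outside the label, of which 86 cells held a single UMI.

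Those Trdc molecules lay mainly in large stellate cells. The first activated stellate label held 55 of them in 1.06% of its cells in i4F 1 and 37 in 1.17% in i4F 2, at 1.29 and 1.64 CPM, with median depths of 10057 and 9137 UMIs. Tcrg-C1 gave 0 UMIs in i4F stellate labels and 3 outside the NK label. At this level, single UMIs are not read as expression.

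**Figure D4:**
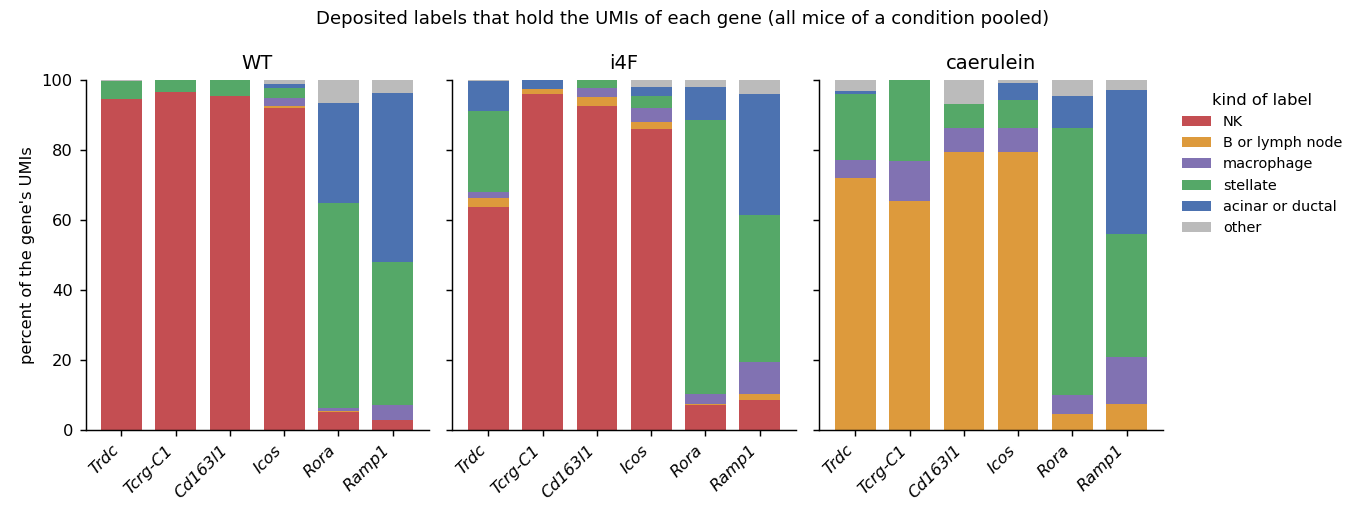
Percent of the UMIs of each gene held by each kind of deposited label, for WT, i4F and caerulein mice, pooled within a condition. In the pooled UMIs, the NK label holds most Trdc, Tcrg-C1, Cd163l1 and Icos of WT and i4F mice (for i4F Trdc through i4F 3, as i4F 1 and i4F 2 have 31.3% and 19.7%), the class of B lymphocyte and lymph node labels in caerulein mice, and stellate, acinar or ductal labels hold most Rora and Ramp1 throughout.

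In caerulein mice, the cells named B lymphocytes held 71.9% of the Trdc UMIs, 65.4% of Tcrg-C1, 79.3% of Cd163l1 and 79.4% of Icos. The marker genes went against that name: Cd79a, a chain of the B cell receptor, was found in 3.16% of these 1392 cells, against 100% of the 158 cells of that name in WT and 87.6% of the 2086 in i4F mice. Any of the 4 CD3 genes was found in 9.12%, against 1.90% and 1.63%. Of 5 dendritic cell genes, Cd209a (12.0%, against 0% and 0.384%), Flt3 (7.83%, against 0.633% and 1.29%) and Xcr1 (2.95%, against 0% and 0.0479%) were found in more of these cells, and H2-Ab1 (80%, against 98.1% and 92.1%) and H2-Eb1 (79.3%, against 96.2% and 91.5%), which B cells express too, in fewer. The label is therefore named here only as the authors wrote it.

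The same partners met in these caerulein cells. Of 41 with a Trdc UMI, 36 of them in caerulein 1 (median depth 715 UMIs), 31.7% held Cd163l1 and 22.0% Tcrg-C1, against 0% and 0.370% of the 1351 others (1842 UMIs). Icos was in 36.6% against 3.03%, Rora in 46.3% against 6.07%, and Ramp1 in 43.9% against 19.3%. Cd3d was in 56.1% against 4.15%, Blk in 24.4% against 0.740% and Trdv4 in 24.4% against 0.222%.

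Because the labels differed between conditions, cells were also counted without them, by a Trdc UMI together with a UMI of Tcrg-C1 or Cd163l1. This rule was set after seeing the data. It found 101 cells, 69 with an NK label, 19 with the label for B lymphocytes and 13 elsewhere. At least 1 of the chains Cd3d, Cd3e and Cd3g was found in 93 of them and Trac in 6.

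WT 1 held 8 of them and WT 2 held 16, the i4F mice 10, 3 and 38, and the caerulein mice 22 and 4. As shares of all cells, that was 0.185% and 0.253% in WT, 0.102%, 0.0365% and 0.499% in i4F, and 0.145% and 0.0568% in caerulein mice. The means were 0.219 ± 0.0481% (SD, n = 2), 0.213 ± 0.250% (SD, n = 3) and 0.101 ± 0.0626% (SD, n = 2). The i4F mice spread on both sides of WT, and both caerulein mice lay below both WT mice, with exact 95% intervals that overlapped those of WT. The rule needs UMIs of 2 genes in 1 cell and thus depends on depth. The cells found had median depths of 2104.5 and 1733 UMIs in WT, 782.5, 741 and 1161.5 in i4F, and 836.5 and 1516.5 in caerulein mice. The part of depth in these shares, and in those of the NK label, was not tested.

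Of the NK label, these cells made up 11.1% and 12.4% for the WT mice, against 4.12%, 0.585% and 3.63% for the i4F mice. Thus in i4F 3 they were the most frequent among all cells of a pancreas while fewer within the label, which held 993 cells. In these cells, pooled by condition, Ramp1 was found in 95.8% (WT), 56.9% (i4F) and 61.5% (caerulein), Rora in 75%, 62.7% and 65.4%, and Icos in 66.7%, 58.8% and 38.5%, at median depths per mouse from 741 to 2104.5 UMIs.

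**Figure D5:**
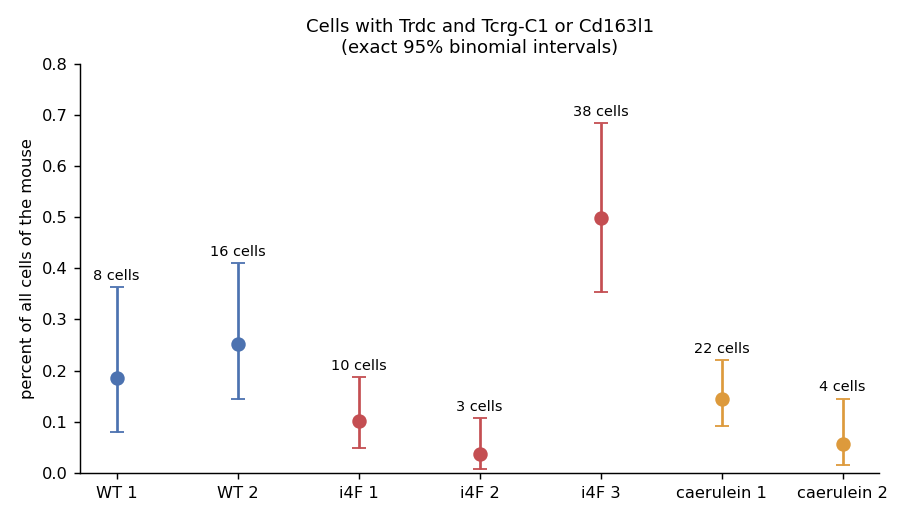
Percent of all cells of each mouse with a Trdc UMI and a UMI of Tcrg-C1 or Cd163l1 (points), with exact 95% binomial intervals and the number of such cells. Mouse i4F 3 has the highest share, 0.499%, and i4F 2 the lowest, 0.0365%.

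The pattern of each gene over the pancreas was compared with that of all genes by the Pearson correlation of log2(CPM + 10) over 90 sums of 1 library and 1 label each, among 15310 genes with at least 200 UMIs. These sums share libraries, labels and depth, so that the values only describe likeness. Tcrg-C1 and Cd163l1 themselves had fewer UMIs than that and could not be named as partners of another gene. Among the genes compared, closest to Trdc were Xcl1 (r = 0.968), Cxcr6 (0.962) and Ifng (0.960). Closest to Tcrg-C1 were Xcl1 (0.987), Ifng (0.980) and Trdc (0.964), and closest to Cd163l1 were Xcl1 (0.975), Trdc (0.974) and Ifng (0.949). Cd163l1 was thus closer to Trdc than any partner named for Trdc. Close to Icos were Il2rb (0.975) and Zap70 (0.971). Rora (Pja1 0.763, Spry2 0.755, Fam189b 0.747) and Ramp1 (Sntb1 0.645, Rora 0.584, D10Jhu81e 0.556) had no partner as close.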

How the data were processed

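Single-cell RNA of 7 mouse pancreata (2 WT, 3 i4F, 2 caerulein) was analysed. The authors aligned 10x Genomics 3′ reads to GRCm38 (mm10) with Cell Ranger, processed cells with Seurat and SoupX and clustered each condition. For each condition, the authors deposited a matrix of UMI counts and a cell table with the cluster label and the percent of mitochondrial UMIs (the latter not used). The sources used here do not say whether the counts were taken before SoupX. Genes missing from a matrix count as 0 UMIs in it. Doublets were not called.

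UMIs were summed per mouse over NK-labelled cells (at least 20 cells per mouse), over all cells and over NK-labelled cells with and without Trdc (at least 10 cells). The sums were compared by the two-sided quasi-likelihood test of edgeR 4.0.16 (TMM, filterByExpr, 1 fit for all groups, adjusted p threshold 0.05) with limma 3.58.1 and R 4.3.3. The NK label had no caerulein cells, so that comparisons with caerulein were not made there. Shares have exact binomial 95% intervals, which cover counting error only. The labels name 1 sample per mouse, and p-values measure the spread between these mice. Sequences and coordinates are from GENCODE M21 on GRCm38. The fits were tested on simulated data. Alternatives were DESeq2 1.42.0, library totals, no filter, a replicate block, a library series term, only cells of 500 or more genes, fits of 2 groups, 2 Trdc UMIs, no NK-labelled cells, and each mouse left out.

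The 6 genes and all gene lists were chosen with earlier results of these data known. Named are the 6 genes, receptor, CD3 and lineage genes, up to 5 called genes per list, 5 per direction in the Trdc split (mean log2 CPM of at least 5, same direction in every mouse) and the 3 genes closest to each of the 6. Some of these are not reported here. Same-numbered mice of different groups did not deviate together (r from -0.515 to 0.129 over 13748 genes).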

Additional observations from a re-analysis of the deposited data

How the results depend on the processing

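In NK-labelled cells, the log2 differences of Trdc, Tcrg-C1, Cd163l1, Rora and Ramp1 between i4F and WT mice kept their sign under 11 of 11 alternatives (Trdc from -2.63 to -1.73), and that of Icos under 7. The number of genes called there, 54, was 100 with DESeq2, 82 with library totals, 247 without a filter and 8 to 101 with 1 mouse left out. Over all cells, i4F against WT gave 4351 calls with DESeq2, 2405 with library totals, 2076 without a filter and 0 to 9543 with 1 mouse left out, the highest without i4F 3. Caerulein against WT, with 1666, gave 5484 with DESeq2, 2914 with library totals, 2830 without a filter, 8024 in a fit of the 2 groups, 0 with the library series as a term and 0 to 8909 with 1 mouse left out, the highest without i4F 3 and 0 without i4F 2 or any of the WT and caerulein mice. i4F against caerulein gave 990 with DESeq2, 100 without a filter, 1 in a fit of the 2 groups and 0 to 1652 with 1 mouse left out. Leaving out mice of the group not compared, which share the fit, was added after seeing the data. Library totals moved the median log2 difference of all genes to -0.34 for i4F against WT and -0.45 for caerulein against WT over all cells. With 1 mouse left in a group, it was assumed to vary like the other groups. The cause of these shifts was not tested.

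The replicate block on mouse numbers, which do not mark shared animals, raised the calls to 256 in NK-labelled cells, 8138 for i4F against WT, 7426 for caerulein against WT and 514 for i4F against caerulein. Same-numbered WT and caerulein mice deviated in opposite directions (r = -0.515), and the crossed pairing, added after seeing the data, gave 9916 calls. In the Trdc split, where both sums come from 1 mouse, the number of calls was 95 with the block and 21 with no replicate block, 250 without a filter, 61 in cells with at least 500 genes, which left out i4F 1 as well, and 60 to 108 with 1 mouse left out. The split by a Trdc and a Tcrg-C UMI left 2 mice and was not run, and in NK-labelled cells a fit of the 2 groups is the fit given.

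No caerulein cell has the NK label, so that sums without NK-labelled cells hold unlike cells and are not compared. The thinned shares of NK-labelled cells differed between i4F and WT by -11.9 percentage points for Trdc (unthinned -10.1) and -13.6 for Ramp1 (-24.5). With 72 to 993 NK-labelled cells per mouse and 12 UMIs of Trdc in i4F 2, the depth limits small differences in these cells.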

Other observations

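Il17a, the gene of interleukin 17A, was found in 54 cells of all mice with 112 UMIs in all, counted after seeing the data. The cells numbered 1 and 3 in WT, 10, 2 and 13 in i4F, and 23 and 2 in caerulein mice, with 1, 3, 21, 12, 23, 50 and 2 UMIs. Single cells held up to 12 UMIs, so that few cells decide each total. A CD3 chain was found in 45 of the 54 cells, Trdc in 30, a gamma constant gene in 25 and Trac in 5, while 13 held none of Trdc, the gamma constant genes or Trac.

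In caerulein mice, 17 of the 25 cells with Il17a held Trdc and 0 held Trac, and 20 carried the label for B lymphocytes. None of the 3 kinds of receptor transcript was found in 7 of the 25, 6 of them in caerulein 1. In i4F mice, 10 of 25 held Trdc and 5 Trac, and 6 of the 25 held none of the 3 kinds, all of them among the 10 cells of i4F 1. The difference between conditions was not tested.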
